A study of Mus musculus with 12 samples.

Results

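The 10 genes described here are the transcriptional regulators that set mitochondrial content in muscle and the enzymes that join or divide mitochondria. They were taken by name. The coactivators were *Ppargc1a*, *Ppargc1b* and *Perm1*, and the DNA-binding factors were *Nrf1* and *Gabpa*. Fusion was represented by *Mfn1*, *Mfn2* and *Opa1*, and fission by *Dnm1l* and *Fis1*. All 10 were found by NCBI Gene ID among the 27179 genes of the count table, and all 10 passed the expression filter that left 15502 genes to be tested. None of them differed between the groups at the 0.05 threshold on adjusted p-values, where 6.28% of all tested genes did. That test (quasi-likelihood test of edgeR, Benjamini-Hochberg) did not pair the muscles of a mouse. With the replicate number as a block, edgeR put *Mfn1* and *Opa1* past the threshold, both lower (adjusted p = 0.0284 and 0.0287). Of all tested genes, 6.62% were lower in that fit. Without the block, 9 of the 10 had a log2 fold change below 0.

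The mice were wild-type C57BL/6N males. By the ages in weeks that the study's methods give, they were young adults. In each of the 6 mice, the tibialis anterior (TA) muscle of 1 leg received empty pcDNA3 plasmid (Control muscles), and that of the other leg received plasmid carrying the full-length human lncRNA *FRAIL1* (*FRAIL1* muscles). The dose was 10 μg per muscle in both groups, given by electroporation, and the muscles were taken after 7 days. The vector's viral promoter is active in many cell types, and the share of fibers that took up plasmid was not measured here. Poly(A) RNA of whole muscle was sequenced, so in these bulk samples fewer cells of a type and less RNA per cell cannot be told apart. *FRAIL1* is a human transcript that is not among these mouse genes, so the transfection itself could not be checked in the counts.

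PGC-1α and PGC-1β, the products of *Ppargc1a* and *Ppargc1b*, do not bind DNA themselves. They dock on factors such as NRF1, the ETS factor GABPA and the estrogen-related receptors, and raise transcription of respiratory chain genes and of the mitochondrial transcription factor *Tfam*. PERM1 is a muscle-enriched regulator that is itself induced by PGC-1 and ERR and acts on many of the same genes. Mitochondria also fuse and divide continuously: the mitofusins MFN1 and MFN2 tether and join outer membranes, OPA1 joins inner membranes and shapes cristae, and the dynamin DRP1, encoded by *Dnm1l*, is drawn to outer-membrane proteins such as FIS1 and MFF to cut the organelle.

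Total counts lay between 44848322 and 60527385 per muscle, and the SD over 6 muscles is the error given with each mean. *FRAIL1* muscle 5 stood apart from the other 11 muscles, at 59.5 on a first principal component that held 32.4% of the variance of log2 CPM, where the next muscle was at 25.8. At the threshold in edgeR, 4.43% of all tested genes were higher and 1.85% lower in *FRAIL1* muscles, and 7.48% and 6.62% with the replicate number as a block. Without both muscles numbered 5 and with the block, 7.81% were lower. By DESeq2 6.06% were lower, by limma voom 5.43%, and at an unadjusted p under 0.05 in edgeR 12.5%. Of the markers for satellite cells and regenerating fibers, 3 of 6 were higher at the threshold in *FRAIL1* muscles. Their summed level was 192 to 244 CPM in Control and 349 to 1559 CPM in *FRAIL1* muscles. With the replicate number as a block 5 of them passed. Denervation markers were higher for 5 of 6 (4 with the block, without *Runx1*), with sums of 56.5 to 82.6 CPM in Control and 134 to 287 CPM in *FRAIL1* muscles. *Myog* stands on both of these lists and is counted as passing in each. Fibroblast markers were higher for 1 of 6 (*Postn*) and for none with the block (adjusted p of *Postn* = 0.109), with sums of 965 to 1806 CPM and 1923 to 5259 CPM. For macrophage markers the count was 0 of 7 by edgeR's quasi-likelihood test (5 at an unadjusted p under 0.05, 4 by DESeq2, 2 by limma voom and 3 with the block), with sums of 158 to 250 CPM and 196 to 570 CPM. All 7 had a log2 fold change above 0. The shares of all genes given above for DESeq2, limma voom and the unadjusted p are of lower genes, and those of higher genes are not given here. Myofiber markers were lower for 1 of 6 (*Ckm*; 2 with the block), with sums of 121588 to 145277 CPM in Control muscles and 97800 to 129439 CPM in *FRAIL1* muscles. Endothelial markers all had a log2 fold change below 0, and 1 of 6 passed (*Tek*, -0.41, adjusted p = 0.0186), 2 with the block and 5 with the block and without both muscles numbered 5, with sums of 396 to 467 CPM in Control and 319 to 416 CPM in *FRAIL1* muscles. Of the slow and oxidative fiber markers 2 of 5 were higher with and without the block (*Tnni1*, 2.27, and *Tnnc1*, 1.58 on the log2 scale), while the sums overlapped at 292 to 2163 CPM and 445 to 1580 CPM. All 5 Schwann cell markers had a log2 fold change below 0 and none passed by edgeR (1 at an unadjusted p under 0.05, 1 by DESeq2 and 0 by limma voom), with sums of 59.2 to 113 CPM and 44.2 to 78.1 CPM. Of the adipocyte markers 0 of 4 tested passed by edgeR, and DESeq2 and limma voom called 0. The 2 with an unadjusted p under 0.05 in edgeR went opposite ways, *Cidec* lower (-0.93) and *Cidea* higher (0.58 on the log2 scale). Muscle 5 had the highest sum of the *FRAIL1* muscles for the satellite cell, denervation, fibroblast and adipocyte lists and the lowest for the myofiber and Schwann cell lists. The part of these markers in the values of the 10 genes was not tested. Genes of the mitochondrial genome took 9.12% to 11.4% of the counts in Control muscles and 6.58% (muscle 5) to 9.90% in *FRAIL1* muscles.

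Promoter sequence was read from RefSeq windows of 300 bases on GRCm38.p6, with 250 bases before the start site and 50 after it. The 9 other genes had 14 windows in all, and *Ppargc1b* was left out. Letters were searched on both strands for TNAAGGTCA (estrogen-related receptor element), GCATGCGC (NRF1 element), CCGGAAG (ETS element, the kind GABPA binds), TGACGTCA (cyclic AMP response element) and CACGTG (E-box), which are held by 1.28%, 2.71%, 8.86%, 1.79% and 7.15% of the 32851 promoter windows in the table. The windows of *Mfn1*, *Opa1* and *Fis1* are shown because they set 2 fusion genes beside a fission gene, and capitals mark the matched letters. In *Opa1* the NRF1 element reads on both strands as overlapping matches, and in *Fis1* and *Mfn1* the capitals are the ETS element.
Mfn1 promoter, chr3:32529232-32529531, plus strand: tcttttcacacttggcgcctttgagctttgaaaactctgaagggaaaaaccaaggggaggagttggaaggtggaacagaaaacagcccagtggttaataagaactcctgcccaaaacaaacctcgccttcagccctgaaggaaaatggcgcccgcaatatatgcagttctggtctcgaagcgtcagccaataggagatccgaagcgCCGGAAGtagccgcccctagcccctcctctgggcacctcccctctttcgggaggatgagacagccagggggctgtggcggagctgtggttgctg
Opa1 promoter, chr16:29579084-29579383, plus strand: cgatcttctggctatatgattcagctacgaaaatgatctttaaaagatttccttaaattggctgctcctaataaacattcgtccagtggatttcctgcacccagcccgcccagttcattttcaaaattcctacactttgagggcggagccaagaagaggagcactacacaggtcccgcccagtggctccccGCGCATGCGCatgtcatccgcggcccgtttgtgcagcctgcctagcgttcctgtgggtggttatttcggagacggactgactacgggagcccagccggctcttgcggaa
Fis1 promoter, chr5:136953025-136953324, plus strand: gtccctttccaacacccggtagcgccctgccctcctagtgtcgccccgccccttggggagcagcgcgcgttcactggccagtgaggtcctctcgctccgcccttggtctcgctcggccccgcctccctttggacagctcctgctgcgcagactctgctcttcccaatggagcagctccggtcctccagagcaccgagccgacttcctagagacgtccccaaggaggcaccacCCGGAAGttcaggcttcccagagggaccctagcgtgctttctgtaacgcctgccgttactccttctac

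The ETS match of *Mfn1* began at position -44 from the start site and that of *Fis1* at -18, while the NRF1 letters of *Opa1* began at -59. ETS letters also stood in 1 window each of *Gabpa* (-93) and *Dnm1l* (13) and in the other *Fis1* window (20). No window of *Perm1*, *Mfn2*, *Nrf1* or *Ppargc1a* held any of the 5 motifs. Such a match is a stretch of letters, and binding was not measured.

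*Ppargc1a* (Gene ID 19017, chromosome 5 of GRCm38, 51454249 to 52115853), the coactivator most closely tied to endurance-type muscle, ranged from 23.3 to 30.2 CPM in Control muscles (median 25.2) and from 19.7 to 26.9 CPM in *FRAIL1* muscles (median 24.1). The groups overlapped, with 3 *FRAIL1* muscles below every Control muscle, and within each of the 6 replicate numbers the *FRAIL1* muscle was the lower. The means were 25.8 ± 2.47 and 23.4 ± 2.99 CPM (SD, n = 6 each). Its log2 fold change was -0.14 (standard error 0.0868) with a 95% interval of -0.32 to 0.046, and the adjusted p was 0.312 in the same edgeR test, which gave every adjusted p-value reported here unless another test is named. Without Control muscle 4, the highest of its group, the log2 fold change of *Ppargc1a* was -0.089.

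*Ppargc1b* (Gene ID 170826, chromosome 18, 61291445 to 61400756) was the only one of the 10 with a higher mean in *FRAIL1* muscles. It ranged from 7.94 to 10.8 CPM in Control muscles (median 9.32) and from 9.15 to 11.5 CPM in *FRAIL1* muscles (median 10.5). Here 3 *FRAIL1* muscles lay above every Control muscle, and the *FRAIL1* muscle was the higher in 6 of 6 numbers. The log2 fold change was 0.16 (standard error 0.0888), with a 95% interval of -0.026 to 0.35 and an adjusted p of 0.246. The ratio of *Ppargc1a* to *Ppargc1b* within a muscle was 2.81 ± 0.427 in Control and 2.27 ± 0.347 in *FRAIL1* muscles (SD, n = 6 each) and was lower in 6 of 6 numbers, with 2 *FRAIL1* muscles below every Control muscle. That count of 6 was fixed by the directions of the 2 genes within each number, and it adds nothing to them. The difference of this ratio was not tested.

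*Perm1* (Gene ID 74183, chromosome 4, 156203262 to 156221307) had the largest fitted difference of the 10. It ranged from 286 to 349 CPM in Control muscles (median 334) and from 152 to 324 CPM in *FRAIL1* muscles (median 264). Muscle 5 held the lowest of the 12 values, and 4 *FRAIL1* muscles were below every Control muscle. The means were 324 ± 27.4 and 254 ± 58.9 CPM (SD, n = 6 each), so the spread in *FRAIL1* muscles was 23.2% of the mean against 8.46% in Control muscles. The log2 fold change of *Perm1* was -0.35 with a standard error of 0.138, a 95% interval of -0.64 to -0.052 and an adjusted p of 0.124. Its within-number differences ran from -1.14 in number 5 to -0.015 in number 4 on the log2 scale. With the replicate number as a block and all 12 muscles the adjusted p of *Perm1* was 0.0800. Without both muscles numbered 5 the log2 fold change was -0.23 (adjusted p = 0.132 without and 0.0141 with the block). Without *FRAIL1* muscle 3, the highest of its group, it was -0.43 (adjusted p = 0.0477), all by edgeR's quasi-likelihood test. Over the 22 alternative settings the adjusted p ranged from 0.0101 to 0.208 and was under 0.05 in 3.

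**Figure D1:**
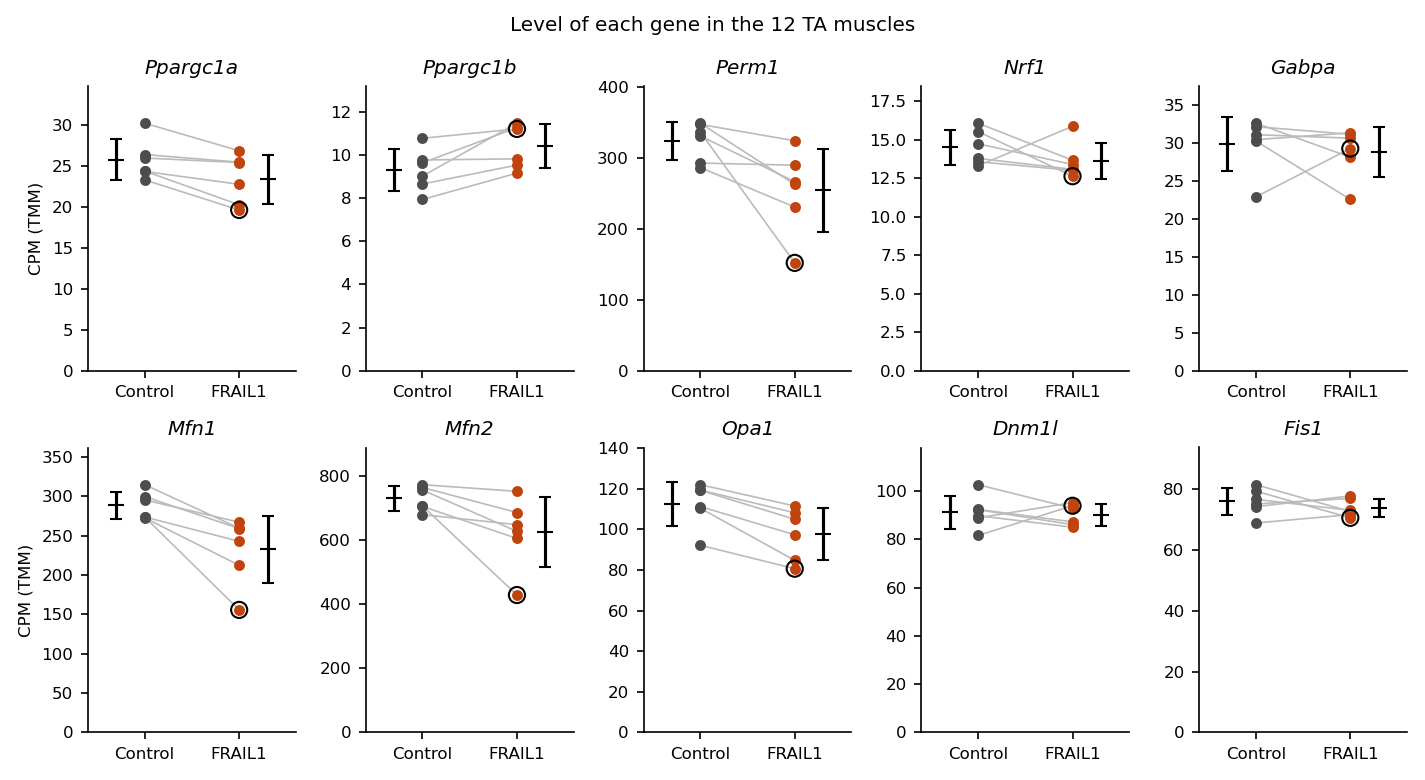
Level of each of the 10 genes in CPM (y axis, from 0) in 6 Control and 6 *FRAIL1* muscles, with grey lines joining muscles of 1 replicate number, a ring around *FRAIL1* muscle 5, and bars for the mean ± SD. The groups separate for *Mfn1* alone, and the ringed muscle is the lowest of the 12 for 6 of the 10 genes.

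Nuclear respiratory factor *Nrf1* (Gene ID 18181, chromosome 6, 30047985 to 30153458), which activates genes of the respiratory chain and of mitochondrial DNA transcription, ranged from 13.3 to 16.1 CPM in Control muscles and from 12.6 to 15.9 CPM in *FRAIL1* muscles. The groups overlapped, 3 *FRAIL1* muscles were below every Control muscle, and the *FRAIL1* muscle was the lower in 5 of 6 numbers, with muscle 4 well above its group. Its log2 fold change was -0.092 (standard error 0.0732), with an adjusted p of 0.435. It was -0.14 without *FRAIL1* muscle 4, -0.061 without Control muscle 3 and -0.054 without both muscles numbered 5. *Gabpa* (Gene ID 14390, chromosome 16, 84834891 to 84863783), the DNA-binding subunit of NRF2/GABP, ranged from 22.9 to 32.7 CPM and from 22.6 to 31.4 CPM. Each group held 1 low muscle, Control muscle 5 and *FRAIL1* muscle 1. The fitted difference of *Gabpa* was -0.052 on the log2 scale (standard error 0.0924, adjusted p = 0.750), and -0.12 without Control muscle 5. Of the exon bases of *Gabpa*, 6.98% overlap *Atp5j* on the other strand, and a strand setting of the counting is not given in the sources used here.

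*Mfn1* (Gene ID 67414, chromosome 3, 32529443 to 32579225) was the only one of the 10 whose groups did not overlap, where 1.77% of all tested genes had every *FRAIL1* value below every Control value. It ranged from 273 to 315 CPM in Control muscles (median 285) and from 156 to 267 CPM in *FRAIL1* muscles (median 251). Muscle 5 was far below the other *FRAIL1* muscles, of which the next lowest was muscle 1 at 212 CPM. The means were 288 ± 17.6 and 233 ± 42.5 CPM (SD, n = 6 each). For *Mfn1* the log2 fold change was -0.31 (standard error 0.109) with a 95% interval of -0.54 to -0.077, and the adjusted p was 0.0880 by edgeR's quasi-likelihood test. With the replicate number as a block it was -0.33 with a standard error of 0.0848 and passed the threshold at an adjusted p of 0.0284. Without both muscles numbered 5 the log2 fold change was -0.23, with an adjusted p of 0.0599 without and 0.00474 with the block, and over the 22 alternative settings the adjusted p ranged from 0.00277 to 0.164.

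*Mfn2* (Gene ID 170731, chromosome 4, 147873586 to 147904909), the mitofusin that also links mitochondria to other membranes, ranged from 679 to 773 CPM in Control muscles (median 732) and from 429 to 752 CPM in *FRAIL1* muscles (median 638). The groups overlapped, 4 *FRAIL1* muscles were below every Control muscle, and the *FRAIL1* muscle was the lower in 6 of 6 numbers. The fitted log2 fold change of *Mfn2* was -0.23 (standard error 0.105), with a 95% interval of -0.45 to -0.0038. The adjusted p was 0.174 and, with the replicate number as a block, 0.0797. Without *FRAIL1* muscle 5 alone the log2 fold change was -0.14 (adjusted p = 0.204), and without both muscles numbered 5 it was -0.15 (adjusted p = 0.192). The adjusted p lay under 0.05 without both muscles numbered 5 and with the block (0.0480), and in the DESeq2 test with the block (0.0309). Within a muscle, *Mfn2* over *Mfn1* was 2.54 ± 0.0800 in Control and 2.69 ± 0.157 in *FRAIL1* muscles (SD, n = 6 each), and was higher in 6 of 6 numbers.

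*Opa1* (Gene ID 74143, chromosome 16, 29579281 to 29663127), whose product acts at the inner membrane, ranged from 92.1 to 122 CPM in Control muscles (median 115) and from 80.6 to 111 CPM in *FRAIL1* muscles (median 101). The groups overlapped widely, but the within-number differences lay between -0.38 and -0.13 on the log2 scale, with an SD of 0.091. For *Mfn1* the same SD was 0.25. The log2 fold change of *Opa1* was -0.20 with a standard error of 0.0901 and an adjusted p of 0.165, and with the replicate number as a block the standard error was 0.0526 and the adjusted p was 0.0287. Its log2 fold change was -0.20 also without both muscles numbered 5.

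*Dnm1l* (Gene ID 74006, chromosome 16, 16312228 to 16359038), the fission dynamin, ranged from 81.6 to 103 CPM in Control muscles (median 91.1) and from 85.1 to 95.3 CPM in *FRAIL1* muscles (median 90.1). The *FRAIL1* values lay within the Control range, and muscle 5 was among the higher of them. The fitted difference of *Dnm1l* was -0.019 on the log2 scale (standard error 0.0596), with a 95% interval of -0.15 to 0.11 and an adjusted p of 0.865. With any 1 muscle left out it ran from -0.050 to 0.017, and without both muscles numbered 5 it was -0.065. An antisense gene overlaps 4.67% of its exon bases. *Fis1* (Gene ID 66437, chromosome 5, 136953275 to 136966234), an outer-membrane adaptor, ranged from 68.8 to 81.4 CPM (median 75.8) and from 70.5 to 77.7 CPM (median 72.8). Its groups overlapped throughout, and its log2 fold change was -0.042 (standard error 0.0531), with a 95% interval of -0.15 to 0.071 and an adjusted p of 0.642. With 1 muscle left out it ran from -0.069 to -0.021.

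**Figure D2:**
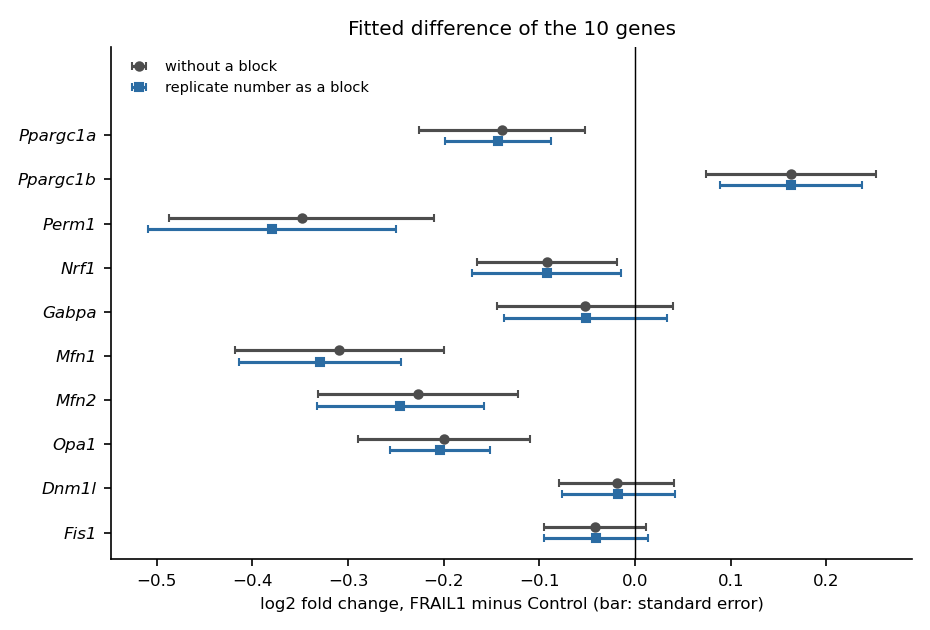
Fitted log2 fold change of the 10 genes (x axis, *FRAIL1* minus Control, bars for the standard error) without a block (circles) and with the replicate number as a block (squares). *Perm1* lies farthest to the left at -0.35, and *Ppargc1b* alone lies to the right of 0. The bars of all genes but *Nrf1* and *Fis1* shorten with the block, *Mfn1* and *Opa1* among them.

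Counted over the group of 10, the number past the threshold was 0, where 6.28% of all tested genes passed it. At an unadjusted p under 0.05 it was 4, namely *Perm1*, *Mfn1*, *Mfn2* and *Opa1*, against 12.5% of all genes that were lower at that level. It was 1 (*Mfn1*) by DESeq2's Wald test, against 6.06% of all genes lower, and 1 (*Mfn1*) by limma voom, against 5.43% lower. With the replicate number as a block in edgeR it was 2 (*Mfn1* and *Opa1*), both lower, against 6.62% of all genes lower, and in DESeq2 with the block it was 4 (*Perm1*, *Mfn1*, *Mfn2* and *Opa1*), against 9.02% lower. Without both muscles numbered 5 it was 0 without the block and the same 4 genes with it, against 7.81% lower. The *FRAIL1* muscle was the lower in 6 of 6 numbers for 5 of the 10 genes (*Ppargc1a*, *Perm1*, *Mfn1*, *Mfn2* and *Opa1*), against 11.7% of all genes. The median log2 fold change of the 10 was -0.12, against 0.0096 over all genes tested.

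Fusion and fission transcripts were also set against each other within a muscle, which removes the scaling between libraries. *Mfn1* over *Dnm1l* was 3.17 ± 0.269 in Control and 2.59 ± 0.497 in *FRAIL1* muscles (SD, n = 6 each). It was lower in 6 of 6 numbers and 5 *FRAIL1* muscles were below every Control muscle, muscle 5 at 1.66. *Mfn1* over *Fis1* was 3.81 ± 0.215 and 3.15 ± 0.552 and was also lower in 6 of 6 numbers. *Mfn2* over *Fis1* was lower in 6 of 6 numbers, *Opa1* over *Dnm1l* in 5 of 6 and *Mfn2* over *Dnm1l* in 4 of 6. All 5 of these ratios overlapped between the groups, and the differences between fusion and fission genes were not tested. On the fission side the ratios hold *Dnm1l* and *Fis1* only. Of the other fission genes, *Gdap1* (-0.57), *Mtfp1* (-0.22), *Mff* (-0.19), *Mtfr1* (-0.070) and *Mtfr1l* (-0.066) had log2 fold changes below those of *Dnm1l* and *Fis1*. *Mief1* (-0.026) and *Mief2* (-0.041) lay between those of *Dnm1l* and *Fis1*. *Mtfr2* (0.44), *Inf2* (0.16), *Spire1* (0.12) and *Dnm2* (0.074) lay above 0.

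By level per kilobase of exon in Control muscles, *Mfn2* stood at 141 ± 7.43 CPM per kilobase (SD, n = 6) and *Perm1* at 83.0 ± 7.02. *Mfn1* at 47.2 ± 2.88 and *Fis1* at 44.3 ± 2.56 followed, and the ranges of these neighbours overlapped. *Dnm1l* stood at 17.6 ± 1.31 and *Opa1* at 14.3 ± 1.39. *Gabpa* at 5.27 ± 0.626 and *Ppargc1a* at 3.91 ± 0.374 had overlapping ranges, and below them were *Ppargc1b* at 2.33 ± 0.247 and *Nrf1* at 1.41 ± 0.110. The transcripts of the fusion and fission enzymes thus lay above those of the DNA-binding factors and both PGC-1 coactivators on this scale.

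Over the 12 muscles, *Mfn2* varied together with *Perm1* and *Mfn1*. On log2 CPM, Pearson's r with *Mfn2* was 0.97 for *Perm1* (Spearman's rho 0.90) and 0.96 for *Mfn1* (rho 0.85), and without both muscles numbered 5 it was 0.93 and 0.86. For *Opa1* it was 0.82, for *Ppargc1a* 0.67 and for *Fis1* 0.51. It was 0.080 for *Dnm1l* with all 12 muscles and 0.64 without both muscles numbered 5, so that gene's value turned on that pair of muscles. These points share their libraries and scaling, muscle 5 lies far from the rest in *Mfn2*, and r is given as a description only. Among 9767 genes compared, *Efcab6* (r = 0.99), *Gfm2* (0.99), *Serpine2* (0.99), *Cdnf* (0.98) and *Oat* (0.98) were most like *Mfn2*, and *Perm1* ranked 25 and *Mfn1* 64. Most like *Ppargc1a* were *Atp11b* (0.92), *Cab39l* (0.91), *Sema6c* (0.90), *Rnf139* (0.90) and *Rabep1* (0.89).

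**Figure D3:**
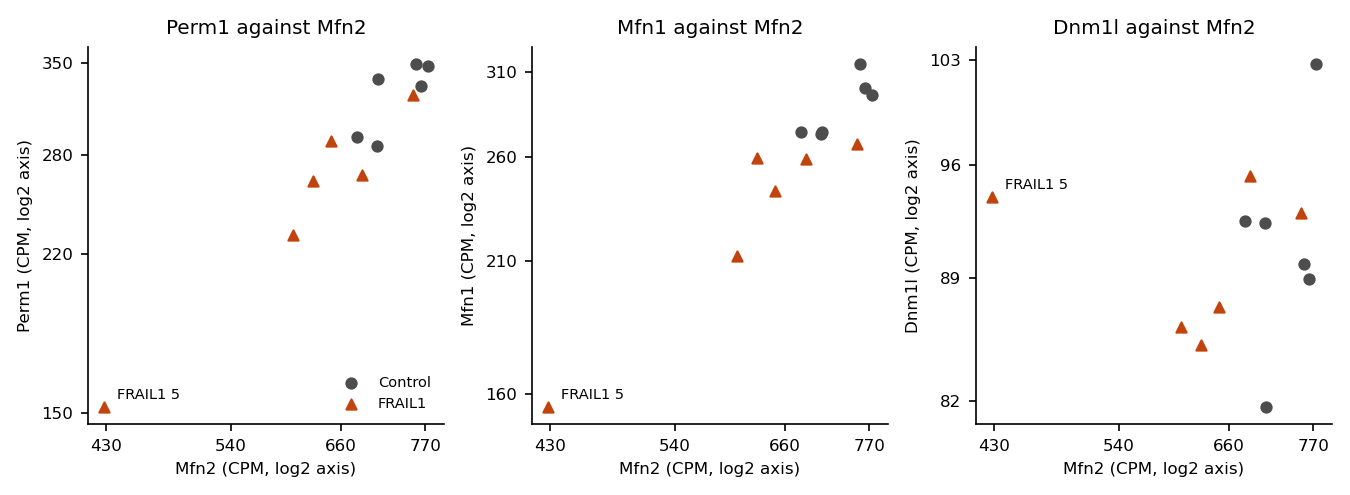
*Perm1*, *Mfn1* and *Dnm1l* (y axes) against *Mfn2* (x axis), all in CPM on log2 axes, with 1 point for each of the 12 muscles. *Perm1* and *Mfn1* follow *Mfn2* down to *FRAIL1* muscle 5, and *Dnm1l* in that muscle sits among the higher values.

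Of 45 other regulators of mitochondrial biogenesis, all tested, 1 was higher and 3 were lower in *FRAIL1* muscles at the threshold, where 4.43% of all genes were higher and 1.85% lower. *Camk2b*, a calcium-dependent kinase subunit, rose from 190 ± 12.2 to 239 ± 32.3 CPM (SD, n = 6 each; log2 fold change 0.34, adjusted p = 0.0297). *Lpin1*, which serves as a coactivator beside PGC-1α, fell from 290 ± 33.2 to 206 ± 37.1 CPM (log2 fold change -0.49, adjusted p = 0.0301). *Rxra*, the retinoid X receptor partner of the PPARs, fell by 0.43 and *Mapk14*, the p38 kinase that acts on PGC-1α, fell by 0.33 on the log2 scale (adjusted p = 0.0335 and 0.0381, edgeR's quasi-likelihood test). With the replicate number as a block the counts were 1 higher and 9 lower, against 7.48% and 6.62% of all genes, and the lower genes then included the calcineurin subunit *Ppp3cb*, the kinase subunits *Camk2a* and *Camk2g* and the AMPK subunit *Prkaa2*. The median log2 fold change of the list was -0.11, with 33 genes below 0 and 12 above.

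Partners that link the coactivators to their targets are given for their place in the pathway. *Esrra*, encoding the estrogen-related receptor ERRα, measured 148 ± 13.9 CPM in Control and 125 ± 15.9 CPM in *FRAIL1* muscles (SD, n = 6 each), with a log2 fold change of -0.24 and an adjusted p of 0.102. Its sister receptors *Esrrg* and *Esrrb* had -0.14 and -0.35 (adjusted p = 0.614 and 0.181), and *Tfam* had -0.087 (0.312). The methyltransferase genes *Tfb1m* and *Tfb2m* differed in direction, at 0.19 (0.274) and -0.22 (0.0746). *Tfb2m* was lower in 6 of 6 numbers. With the replicate number as a block it passed the threshold (adjusted p = 0.0344), where 6.62% of all genes were lower. The GABP subunit *Gabpb1* had 0.040 (0.807) and the PGC-1-related coactivator *Pprc1* 0.018 (0.888).

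Of 44 other genes of mitochondrial dynamics, 43 were tested, all but *Pld6*. *Spg7*, a subunit of the inner-membrane AAA protease, fell from 133 ± 4.04 to 111 ± 10.5 CPM (SD, n = 6 each; log2 fold change -0.26, adjusted p = 0.0348). Its groups did not overlap, for *Spg7* alone of the list, where 1.77% of all tested genes had every *FRAIL1* value below every Control value. *Pink1*, the kinase that marks damaged mitochondria, fell from 694 ± 81.7 to 494 ± 98.9 CPM (log2 fold change -0.49, adjusted p = 0.0380). These 2 were the only dynamics genes past the threshold, where 1.85% of all genes were lower. With the replicate number as a block the count was 5, all lower, against 6.62% of all genes, with the fission genes *Gdap1* (-0.57 without the block) and *Mff* (-0.19) and the transport adaptor *Trak2* (-0.19) in addition. When each of the 12 muscles was dropped in turn, *Pink1* stayed past the threshold in 5 and *Spg7* in 3, against 6 for *Camk2b*, 4 each for *Lpin1* and *Mapk14* and 3 for *Rxra*. The median log2 fold change of the dynamics list was -0.041.

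Of 31 genes used as targets of PGC-1α, ERRα or PERM1, none passed the threshold by edgeR's quasi-likelihood test, and 7 had an unadjusted p under 0.05, all but *Angptl4* lower, against 12.5% of all genes that were lower at that level. DESeq2 and limma voom each called 3, *Slc2a4*, *Vegfa* and *Hk2*, all lower, against 6.06% and 5.43% of all genes. With the replicate number as a block, 4 were lower (*Pdk4*, *Hk2*, *Vegfa* and *Sod2*) and 1 was higher (*Angptl4*), against 6.62% and 7.48% of all genes. *Hk2*, the muscle hexokinase, had the lowest log2 fold change of the list at -0.35. Its groups did not overlap, for *Hk2* alone of the 31, where 1.77% of all tested genes had every *FRAIL1* value below every Control value. The list's median log2 fold change was -0.12, with 29 genes below 0 and 2 above, where 7500 of the 15502 genes tested were below 0.

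**Figure D4:**
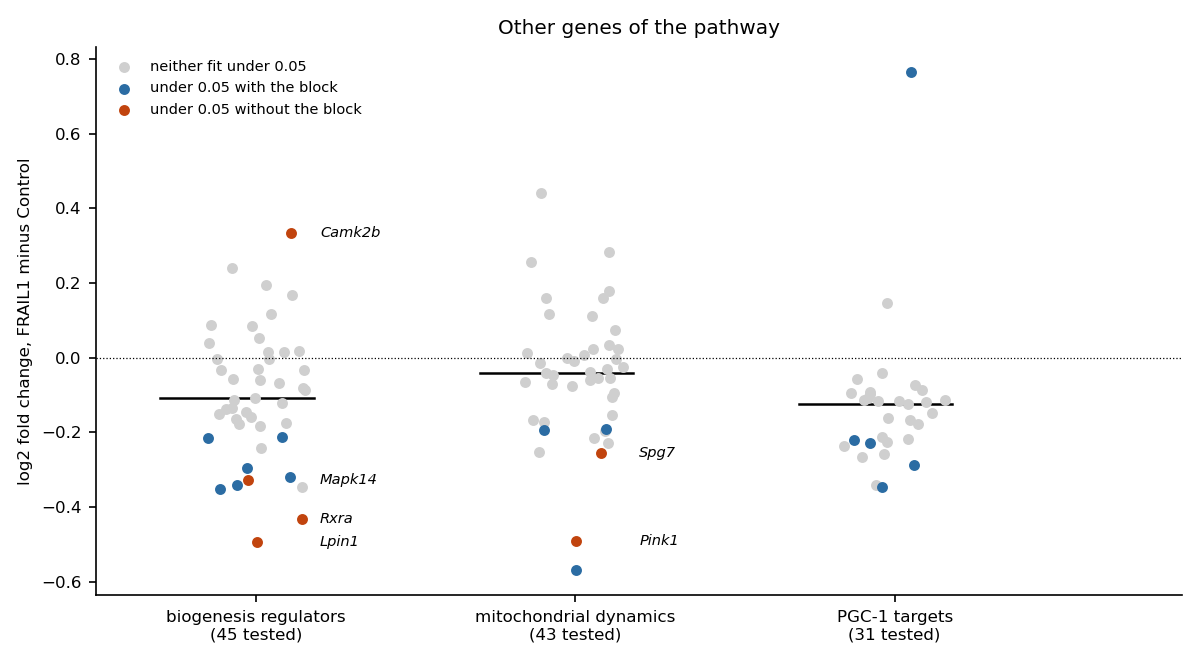
Log2 fold change (y axis, *FRAIL1* minus Control) of the other pathway genes in 3 lists, 1 point per gene, coloured by whether the adjusted p was under 0.05 without the block, only with it, or in neither, with a line at each list's median. The medians lie at -0.11, -0.041 and -0.12, and the labelled genes passed the threshold without the block.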

How the data were processed

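RNA-seq counts of 12 TA muscles, 6 Control and 6 *FRAIL1*, were analysed. Per the labels and the study's methods, the authors trimmed reads with Trimmomatic, mapped them to mm10 with STAR 2.7.8a and counted uniquely mapping reads per gene with featureCounts 2.0.1. The deposited counts are whole numbers without normalization. Of 27179 genes, 25275 matched a symbol, and the others held 0.28% of all reads counted. Libraries of a group differed by far more than sampling noise (chi-square per degree of freedom of 14.5 or more).

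Genes were filtered with filterByExpr, normalized by TMM and tested by edgeR 4.0.16 (R 4.3.3; quasi-likelihood, robust), with Benjamini-Hochberg adjustment over all 15502 genes and a threshold of 0.05. The standard error is the log2 fold change over the root of the F statistic, and r was taken on log2 CPM with a prior count of 2. The script was tested on simulated counts.

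The design text gives both legs of each mouse, and the muscles of 1 replicate number were taken as those of 1 mouse, which the labels do not state outright. Deviations from the group means correlated by 0.254, 0.162, 0.282, 0.263, 0.0547 and 0.185 for numbers 1 to 6, with a mean of 0.200 against -0.0400 between different numbers. In the labels, nothing but the numbers ties the muscles to mice. For numbers 1, 2, 3, 4 and 6, each muscle correlated most with its same-numbered partner in the other group, in both directions. For number 5 this did not hold, and that pair was related least.

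Alternatives were the replicate block, DESeq2's size factors, a TMM that ignores the 15 mitochondrial genes and the top 20 by count, an unfiltered table, a minimum of 10 counts per muscle, DESeq2 1.42.0, limma 3.58.1 voom, each muscle left out, and both muscles numbered 5 left out. The 10 genes, the lists and the alternatives were chosen with earlier results of these data known. Genes named from the lists were those past the threshold, then those past it with the block by smallest p, to 8 per list. A further 6 partners (*Esrra*, *Esrrg*, *Tfam*, *Tfb1m*, *Gabpb1* and *Pprc1*) were added by hand with their values known. *Slc2a4*, *Esrrb*, *Tfb2m* and the fission genes other than *Gdap1* and *Mff* were also added with their values known. Transcripts of the 10 genes were compared with all others by BLAST 2.17.0 (98% identity, 100 bases or more), and the matches were the overlapping genes *Atp5j* and *Gm49521*.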

Additional observations from a re-analysis of the deposited data

Results flagged for a closer look

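Within a group of 6 muscles, a sample was looked at again where its gap to the nearest other value was large against the whole range of the group. Of the 20 groups examined (10 genes in 2 groups), 3 held such a sample, and chance alone gives about 1 in 20. *Nrf1* measured 15.9 CPM in *FRAIL1* muscle 4, above the other 5 *FRAIL1* muscles at 12.6 to 13.7 CPM. *Gabpa* measured 22.9 CPM in Control muscle 5, below the other Control muscles at 30.3 to 32.7 CPM. *Gabpa* also measured 22.6 CPM in *FRAIL1* muscle 1, below the other *FRAIL1* muscles at 28.2 to 31.4 CPM. *FRAIL1* muscle 5, which was the lowest of the 12 muscles for 6 of the 10 genes, was not set apart by such a gap for any of them.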

How the results depend on the processing

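For the 10 genes, 204 of 220 values under the alternatives kept their direction and side of the threshold, 14 came under it and 2 reversed. *Gabpa* was at 0.0069 on the log2 scale without *FRAIL1* muscle 1 and ran from -0.12 to that value when each muscle was left out, and *Dnm1l* at 0.017 without Control muscle 3. For the other 35 named genes 617 of 770 were unchanged in this sense, 100 came under the threshold, 48 lost it and 5 reversed. These 35 leave out the markers, *Esrrb*, *Tfb2m* and the fission genes other than *Gdap1* and *Mff*. *Pprc1* was at -0.012 without Control muscle 4 and at -0.012 without *FRAIL1* muscle 2, and at most 0.048 with any muscle left out. *Gabpb1* ran from -0.034 (without *FRAIL1* muscle 5) to 0.074 with 1 muscle left out, and was at -0.050 without both muscles numbered 5 and at -0.047 when the block was added. The cause was not tested.

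With the replicate block the number of genes past the threshold went from 974 to 2186, and the counts for the 10 genes, biogenesis regulators, dynamics genes and PGC-1 targets from 0, 4, 2 and 0 to 2, 10, 5 and 5. With DESeq2's Wald test they were 2211, 1, 10, 7 and 3, with its block 2875, 4, 12, 9 and 10, and with limma voom 1836, 1, 9, 5 and 3. Without both muscles numbered 5 and with the block they were 2305, 4, 10, 6 and 8, and without the block the PGC-1 targets had 1. When each muscle was left out in turn they ranged from 364 to 2110, 0 to 2, 0 to 10, 0 to 7 and 0 to 4. All 4 calls among the biogenesis regulators were lost without any 1 of Control muscles 1 to 5 or without *FRAIL1* muscle 1, and both among the dynamics genes without Control muscle 1, 2, 4, 5 or 6 or without *FRAIL1* muscle 1 or 4. The lowest count of all genes came without *FRAIL1* muscle 1 and the highest without *FRAIL1* muscle 3, where *Perm1* and *Mfn1* passed. Scaling choices changed no direction among the 10 genes and moved the median of all genes by less than 0.1.

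These values carry the spread between 6 muscles per group, and the part of depth in that spread was not tested gene by gene. Differences down to -0.15 on the log2 scale lie within the 95% intervals of *Dnm1l* and *Fis1*. Whether muscles of 1 number share a mouse rests on the numbering and on the correlations of deviations given above, which were lowest for number 5.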
